A study of Mus musculus with 30 samples.

Results

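Messenger RNA of wild-type (WT) mouse hearts was compared between 4 weeks of age, soon after weaning, and 15 weeks, in adult mice. The comparison took 8 of the 30 heart libraries of the series, chosen by the age and genotype in the headings of the count table: 4 WT hearts at 4 weeks and 4 WT hearts at 15 weeks. All were (CBA x C57BL/6) F1 mice by their labels, with no treatment named, and came from the colony of R6/2 mice, a model of Huntington's disease that carries the start of the human huntingtin gene as a transgene. The WT mice lack the transgene and served as controls. R6/2 males were crossed to F1 females to keep that colony, so the WT mice can differ in the parental alleles they carry. RNA came from whole hearts, which can hold atria, valves, vessels and blood beside the ventricles. Mice are named by the numbers in the column headings, mice 10 to 13 at 4 weeks and mice 1 to 4 at 15 weeks. The sample labels do not otherwise say that the libraries came from separate animals, and p-values measure the spread between these libraries. Set beside the WT change where stated are R6/2 hearts at 4 weeks (4) and 15 weeks (4), and WT hearts of the colony of HdhQ150 mice, another Huntington's disease model, at 8 months (4) and 22 months (3), all with the same strain label.

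A mouse heart goes on growing after weaning, mainly because its cardiomyocytes enlarge, since most of them have left the cell cycle in early life. Growth of the young body is driven by insulin-like growth factors and by a set of imprinted genes, which are expressed from the allele of a single parent and are turned down in many organs as growth slows. The contractile proteins and the use of fuels change from fetal to adult forms around birth and in the weeks after it. Heart cells also hold a circadian clock and respond to adrenal glucocorticoids and to interferons, and resident macrophages lie between the cardiomyocytes.

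Total counts ran from 38217660 to 44327646 per library, and mitochondrially encoded genes took 25.1% to 32.9% of them. Levels are given as CPM, counts divided by the library's total on a common scale, adjusted between libraries by the TMM method of edgeR. The summed level of 10 cardiomyocyte markers ran from 37500 to 63600 CPM. Transcripts of developing T cells were high at 15 weeks in mice 1 and 2. The summed level of 21 thymocyte markers was 2910 CPM in mouse 1 and 2380 CPM in mouse 2, against 69.5 to 518 CPM in the other 6 libraries. In mouse 12, airway and alveolar markers summed to 258 CPM against 1.27 to 36.1 CPM elsewhere, and in mouse 3 erythroid markers summed to 8900 CPM against 125 to 1950 CPM. Mice 1 and 2 are headed as female but carried Y-linked transcripts, at 150 and 143 unscaled CPM. All 4 hearts at 15 weeks thus carried Y-linked transcripts, whereas at 4 weeks mice 10 and 11 did and mice 12 and 13 did not. The calls and the list counts were repeated without mice 1 and 2, and the counts of genes without overlap, by exon length, shared with R6/2 hearts and by later age were not.

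Among called genes, more fell than rose by 15 weeks with all 8 hearts, and the reverse held without mice 1 and 2. A gene was called where edgeR's quasi-likelihood test gave a Benjamini-Hochberg adjusted p under 0.1 and the fold change was at least 1.3. Of 15531 genes tested, 1088 were called (7.01%). Of these, 357 were higher at 15 weeks (2.3%) and 731 lower (4.71%), and the median log2 fold change of all genes was 0.01. The levels of 2304 genes (14.8%) did not overlap between the ages, and 1049 of the 1088 called genes were among them. Without mice 1 and 2, 106 of 15930 genes were called (0.665%). The 106 comprised 67 higher (0.421%) and 39 lower (0.245%) genes, and 73 were also called in the same direction with all 8 hearts. Leaving out 1 library gave 295 calls without mouse 2, 406 without mouse 13, 427 without mouse 10, 459 without mouse 1 and 562 without mouse 4, and from 735 to 1116 without mouse 12, 11 or 3. The number after the letter L in the column headings was taken as the sequencing lane, which the headings do not state. With this lane as a block over the 3 lanes that hold both ages (6 libraries), 1 gene was called (2265 at an unadjusted p under 0.05). Among the 6 hearts with Y-linked transcripts, 44 genes were called. Among the 67 called genes given with their values by heart or their standard errors below, none changed direction under any of the 28 alternatives that tested it. Alternatives that change only a threshold reuse the main fit and cannot change a direction, and the others share hearts with it. The call was kept without mice 1 and 2 by 22 leading genes, which were chosen for this, and by 2 of the other 45, Prg4 and Bmp10. In the 6 hearts with Y-linked transcripts, 16 of the 67 genes kept their call. In whole hearts, fewer cells of a type and less RNA per cell cannot be told apart.

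The call with the smallest adjusted p was the fall of Igf2, the fetal growth factor that is expressed from the paternal allele. Its level at 4 weeks was 101, 98.0, 82.0 and 79.5 CPM in mice 10 to 13, and at 15 weeks it was 22.5, 23.7, 27.6 and 22.5 CPM in mice 1 to 4. The lowest young heart was above the highest adult heart, and the mean fell 3.75-fold, from 90.2 ± 11.04 to 24.1 ± 2.41 CPM (SD, n = 4 each). The log2 fold change of Igf2 (ENSMUSG00000048583) was -1.91 ± 0.12 (standard error) with an edgeR adjusted p of 0.00228, and without mice 1 and 2 it was -1.84 and kept its call. H19, the maternally expressed non-coding RNA next to Igf2, was at 54.1, 65.1, 42.6 and 37.01 CPM in the young hearts and at 17.5, 17.2, 15.8 and 21.02 CPM in the adult hearts. Its ages did not overlap either, and it fell by 1.47 ± 0.19 on the log2 scale (edgeR adjusted p = 0.0184).

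**Figure D1:**
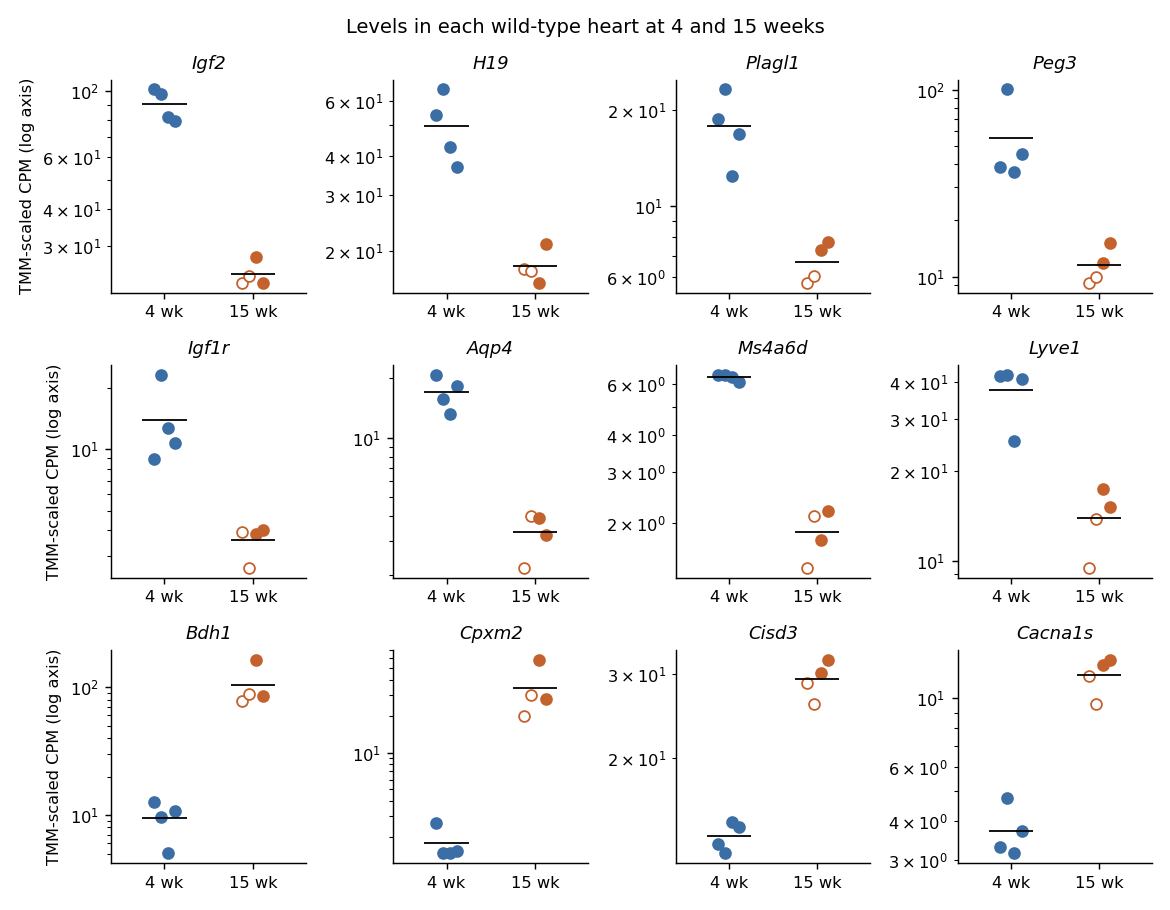
TMM-scaled CPM of 12 genes in each WT heart at 4 weeks (blue) and 15 weeks (orange, with open circles for mice 1 and 2, whose libraries carried thymocyte transcripts), on log axes that differ between panels, with a bar at the mean of the 4 hearts. In every panel the ages do not overlap: Igf2 spans 79.5 to 101 CPM at 4 weeks and 22.5 to 27.6 CPM at 15 weeks, and Bdh1 spans 5.03 to 12.7 CPM and 77.6 to 164 CPM.

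Some other imprinted genes fell as well in WT hearts. Of 22 imprinted growth genes tested, 5 were called lower at 15 weeks (4.71% of all genes were) and 0 higher. The median log2 fold change of the list was -0.41 beside 0.01 over all genes. Plagl1, a zinc finger factor of the imprinted growth network, was at 18.7, 23.3, 12.4 and 16.9 CPM at 4 weeks and at 5.75, 6.04, 7.29 and 7.72 CPM at 15 weeks, with no overlap (log2 fold change -1.41 ± 0.20, edgeR adjusted p = 0.0214). Peg3 and Zim1, imprinted zinc finger genes of a shared cluster, were picked after their values were seen. Peg3 was at 38.8, 100, 36.4 and 45.2 CPM at 4 weeks and at 9.24 to 15.1 CPM at 15 weeks, a log2 fold change of -2.26 ± 0.35. Mouse 11 had more than the other young hearts, but each of those also exceeded every adult heart. Zim1 ran from 0.536 to 1.16 CPM at 4 weeks and from 0.153 to 0.392 CPM at 15 weeks (log2 fold change -1.99 ± 0.39). Airn, the imprinted antisense RNA at the Igf2r locus and one of the 12 leading genes that fell, lay between 11.6 and 14.1 CPM in the young hearts and between 3.96 and 5.30 CPM in the adult hearts (log2 fold change -1.41 ± 0.14, edgeR adjusted p = 0.0121). Whether reads were counted by strand is not given in the sources used here, and without strand the reads of Airn and Igf2r cannot be told apart. Dlk1, an imprinted gene of fetal growth, did not pass the test, with a log2 fold change of -0.18. The median of the list without mice 1 and 2 was -0.27, and Igf2 was the 1 member called. Between the same ages in R6/2 hearts, 8 of 22 were called lower (13.2% of all genes were) and 4 higher (12.1%), with a median of -0.26.

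Genes of insulin-like growth factor and growth hormone signalling were also lower at 15 weeks. Of 21 tested, 5 were called lower (4.71% of all genes were) and 0 higher, with a median log2 fold change of -0.68. The receptor gene Igf1r was at 8.97, 23.2, 12.6 and 10.7 CPM at 4 weeks and at 3.92, 2.62, 3.83 and 4.01 CPM at 15 weeks. No adult heart reached the lowest young heart, and the log2 fold change was -1.95 ± 0.31 (edgeR adjusted p = 0.027). Igf2bp3, a fetal RNA-binding protein that binds Igf2 mRNA, went from 0.296 to 1.01 CPM in young hearts to 0.0796 to 0.109 CPM in adult hearts (log2 fold change -2.55 ± 0.46). Pappa, a protease that frees the growth factors from their binding proteins, fell by 1.65 ± 0.33 on the log2 scale. Irs1, an adaptor of the insulin receptor, and Stc1, a secreted glycoprotein, were picked after their values were seen. Irs1 was at 27.4 to 39.2 CPM at 4 weeks and at 5.86, 7.74, 21.1 and 8.71 CPM at 15 weeks, with mouse 3 nearest to the young hearts (log2 fold change -1.56 ± 0.38). Stc1 lay between 3.08 and 7.48 CPM at 4 weeks and between 1.77 and 2.55 CPM at 15 weeks, a log2 fold change of -1.21 ± 0.29. For Igf1 itself the log2 fold change was -0.68 and the edgeR adjusted p 0.321. When mice 1 and 2 were left out, the median of the list was -0.45 and edgeR called 0 of 21 (2 higher and 5 lower at an unadjusted p under 0.05).

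Among the genes that rose most clearly were some of mitochondrial metabolism. Bdh1, the mitochondrial enzyme that interconverts the ketone bodies 3-hydroxybutyrate and acetoacetate, was at 12.7, 9.71, 5.03 and 10.8 CPM at 4 weeks and at 77.6, 88.0, 164 and 85.3 CPM at 15 weeks. Every adult heart exceeded every young heart, and the mean rose 10.8-fold (log2 fold change 3.44 ± 0.36, edgeR adjusted p = 0.0121). Mouse 3 was the highest adult heart. Cisd3, a mitochondrial iron-sulfur protein, moved with little spread from 12.6 to 14.6 CPM to 25.99 to 32.1 CPM (log2 fold change 1.10 ± 0.10, edgeR adjusted p = 0.0121).

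The other leading genes that rose have diverse roles. These 12 genes, like the 12 leading genes that fell, had the smallest adjusted p among called genes whose ages did not overlap and whose call was kept without mice 1 and 2, so that keeping it is part of how they were chosen. Cpxm2, a secreted carboxypeptidase-like protein, was at 2.62, 1.48, 1.497 and 1.54 CPM at 4 weeks and at 20.1, 29.7, 58.6 and 27.9 CPM at 15 weeks, a 19.1-fold rise of the mean (log2 fold change 4.25 ± 0.39). Cacna1s, the pore of the L-type calcium channel of skeletal muscle, was at 3.30, 4.76, 3.15 and 3.71 CPM in young hearts and at 11.8, 9.57, 12.8 and 13.4 CPM in adult hearts (log2 fold change 1.67 ± 0.18). Neither gene overlapped between the ages. Others were Rims4, a protein of the RIM family (log2 fold change 1.88 ± 0.25), Rgl3, a Ral exchange factor (1.02 ± 0.14), Htatip2 (0.80 ± 0.11), Ncdn (0.74 ± 0.10) and the predicted genes Gm13610 and Gm13601. Gm13610 was at 0.101, 0, 0 and 0.0893 CPM at 4 weeks and at 5.40, 3.98, 3.32 and 7.94 CPM at 15 weeks. Gm13601 had 0 counts in the 4 young hearts and 146 counts in the adult hearts, which is at least 49.3-fold higher against a floor of 3 counts over the group. Of the 24 leading genes, 21 were also called in the same direction between 4 and 15 weeks in R6/2 hearts. There, 12.1% of 15675 genes were called higher and 13.2% lower, and the leading gene Gm15777 was not tested.

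The leading genes that fell have diverse roles too. Aqp4, a water channel, was at 20.9, 15.7, 13.2 and 18.2 CPM at 4 weeks and at 2.18, 4.00, 3.89 and 3.21 CPM at 15 weeks (log2 fold change -2.35 ± 0.23, edgeR adjusted p = 0.0121). Hipk2, a nuclear protein kinase, was at 58.99, 29.5, 38.6 and 60.5 CPM and at 3.18, 3.04, 7.75 and 4.35 CPM, so that the mean fell 10.2-fold (log2 fold change -3.36 ± 0.38). Both genes separated the ages with a wide gap. Srcap, the ATPase of a chromatin-remodelling complex, went from 7.02 ± 1.03 to 1.35 ± 0.379 CPM (SD, n = 4 each; log2 fold change -2.38 ± 0.24), and Btbd7 from 16.6 ± 2.96 to 4.21 ± 1.16 CPM (log2 fold change -1.98 ± 0.23). Lrp6, a co-receptor for Wnt proteins, fell by 0.85 ± 0.09 on the log2 scale, Ankfy1, an endosomal protein, by 0.71 ± 0.09 and Tmem164 by 1.09 ± 0.12. The predicted gene Gm15777 fell from 0.559 ± 0.112 to 0.037 ± 0.0141 CPM.

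Calls that were lower at 15 weeks tended to have long exons. The median summed exon length was 7984 bases for genes called lower, 3827 bases for genes called higher and 4256 bases for all genes tested, from GENCODE vM21 models that cover 96.6% of tested genes. Genes were split by exon length into 10 bins of equal size. In the bin with the longest exons, which starts at 9715 bases, 16.4% were called lower and 0.6% higher, and the median log2 fold change was -0.23. Hearts differed in this by library. For that bin, the median difference from the gene's mean was 0.11, 0.13, 0.06 and 0.15 on the log2 scale in mice 10 to 13, and -0.13, -0.17, -0.01 and -0.20 in mice 1 to 4, with mouse 3 nearest to 0. The named genes called lower in that bin include Srcap at 15783 bases, Btbd7 at 16456, Igf1r at 16791, Peg3 at 13324 and Lrp6 at 13672. Htt at 24438, Itpr1 at 18319, Pfkp at 13401, Fbn2 at 13215, Ankfy1 at 11332, Pappa at 11027 and Pdgfra at 10024 belong there too. Igf2 at 5723, Aqp4 at 6233 and Ms4a6d at 1735 do not. With the trend of each library on exon length removed, an adjustment chosen after the data were seen, 836 genes were called, 345 higher and 491 lower, and 716 of them were also called without it. Of these 67 called genes, 63 kept their call.

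**Figure D2:**
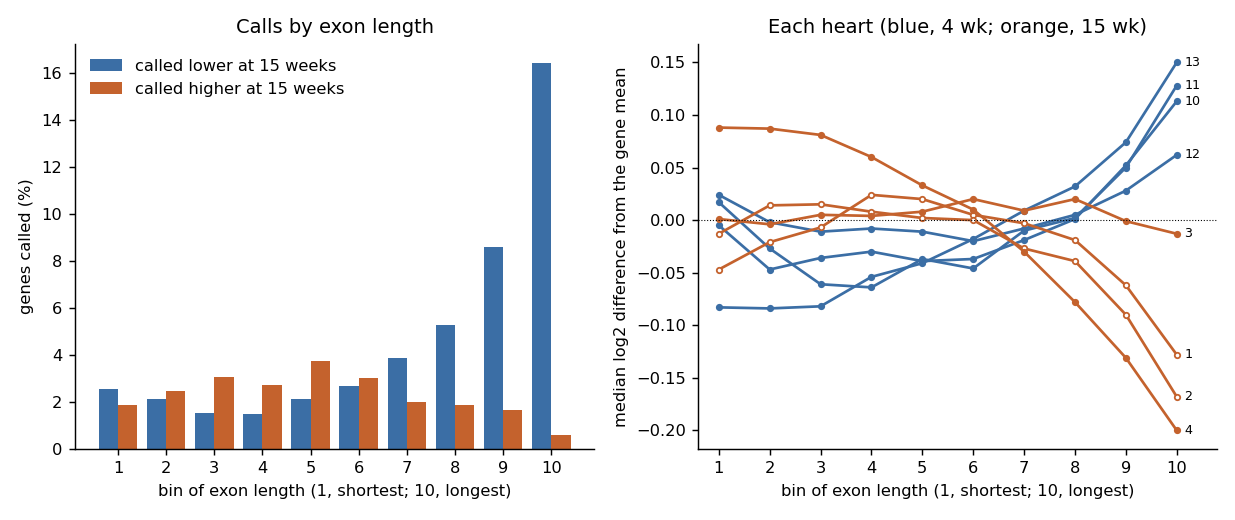
Left, the percentage of genes called lower (blue) and higher (orange) at 15 weeks in each of 10 bins of summed exon length (1, shortest); right, the median log2 difference from the gene's mean over the 8 hearts, by bin, in each 4-week heart (blue) and 15-week heart (orange, open circles for mice 1 and 2), with mouse numbers at the right end. The share called lower reaches 16.4% in the longest bin, where the 4 young hearts lie between 0.06 and 0.15 and the 4 adult hearts between -0.20 and -0.01.

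Macrophage genes were lower in the adult hearts. Of 16 macrophage markers tested, 7 were called lower (4.71% of all genes were) and 1 higher (2.3%), with a median log2 fold change of -0.65. Their summed level ran from 325 to 413 CPM at 4 weeks and from 190 to 268 CPM at 15 weeks. Lyve1, the hyaluronan receptor carried by a class of resident macrophages and by lymphatic vessels, was at 42, 42.3, 25.3 and 40.9 CPM in young hearts and at 9.44, 13.8, 17.4 and 15.1 CPM in adult hearts, which do not overlap (log2 fold change -1.43 ± 0.23, edgeR adjusted p = 0.027). The scavenger receptor Cd163 fell from 21.7 ± 6.78 to 7.46 ± 1.48 CPM (SD, n = 4 each) and the mannose receptor Mrc1 from 33.7 ± 7.45 to 15.2 ± 1.69 CPM, with log2 fold changes of -1.54 ± 0.27 and -1.15 ± 0.17. The complement genes C1qa, C1qb and C1qc and the Fc receptor gene Fcgr1 made up the other calls, at log2 fold changes of -0.64, -0.83, -0.59 and -1.25. Cd209f, a lectin of the DC-SIGN family, went the other way and rose from 0.430 to 1.61 CPM to 2.68 to 3.42 CPM (log2 fold change 1.38 ± 0.38). Among general macrophage markers, Csf1r, the receptor for the macrophage growth factor, had a log2 fold change of -0.17 and Cd68 one of 0.01, and neither passed the test. The myeloid genes Ms4a6d and Ms4a6c were among the leading genes that fell. Ms4a6d was at 6.45, 6.48, 6.37 and 6.12 CPM and at 1.40, 2.11, 1.75 and 2.20 CPM (log2 fold change -1.77 ± 0.18), and Ms4a6c had a log2 fold change of -1.96 ± 0.22. They are related copies, between which the counting may have split reads. The median of the marker list without mice 1 and 2 was -0.64 and edgeR called 0 of 16 (1 higher and 8 lower at an unadjusted p under 0.05).

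Genes induced by glucocorticoids were higher in the young WT hearts. Of 12 such genes, 7 were called lower at 15 weeks (4.71% of all genes were) and 0 higher. All 12 had a log2 fold change below 0, and the median was -1.33. Tsc22d3, the glucocorticoid-induced leucine zipper, was at 162, 222, 128 and 160 CPM at 4 weeks and at 54.3, 69.2, 72.4 and 77.0 CPM at 15 weeks, a fall without overlap (log2 fold change -1.30 ± 0.18, edgeR adjusted p = 0.0211). Zbtb16, a zinc finger factor, was at 72.4, 142, 45.4 and 170 CPM and at 8.24, 15.4, 24.9 and 10.2 CPM (log2 fold change -2.87 ± 0.51). Klf9, a further zinc finger factor of the response, fell by 1.14 ± 0.21 on the log2 scale. Sgk1, a kinase, and the metallothioneins Mt1 and Mt2 were also called, at log2 fold changes of -0.91, -1.75 and -3.47. Fkbp5, a co-chaperone of the receptor, was at 71.5, 138, 55.5 and 81.9 CPM at 4 weeks and at 62.6, 63.5, 10.7 and 13.8 CPM at 15 weeks. Mice 3 and 4 were below all young hearts for Fkbp5, mice 1 and 2 lay among them, and it did not pass the test (log2 fold change -1.20). Mouse 11 was the highest heart for 6 of the 7 called genes and mouse 13 for the other, and without mouse 11 the list still had 7 calls, with a median of -0.94. With mice 1 and 2 left out the median was -1.53 and Fkbp5 was the 1 member called, at -2.81. Between the same ages in R6/2 hearts, 2 of 12 were called lower (13.2% of all genes were) and 0 higher, with a median of -0.11.

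Among genes of the circadian clock, Per2, Per3 and Tef fell most among the calls and Arntl rose. In this clock the activator BMAL1, encoded by Arntl, acts through E-box sites on the Per genes and on genes such as Dbp, whose product and its PAR bZIP relatives act in turn through D-box sites. Arntl peaks at about the opposite phase to Dbp. Of 12 genes that peak with Dbp, 6 were called lower at 15 weeks (4.71% of all genes were) and 0 higher. Their median log2 fold change was -0.85. Of 5 genes that peak with Arntl, Arntl alone was called, and the median was 0.22. The phases were not tested against each other. To show sites of both kinds in genes that fell, RefSeq promoters on build GRCm38.p6 are given from 250 bases before to 50 bases after the gene start, 5′ to 3′ on the strand of the gene, with the letters CACGTG (E-box, in Per1) and TTATGTAA (D-box, in Per3) on either strand in capitals.
Per1, chr11:69098699-69098998, plus strand: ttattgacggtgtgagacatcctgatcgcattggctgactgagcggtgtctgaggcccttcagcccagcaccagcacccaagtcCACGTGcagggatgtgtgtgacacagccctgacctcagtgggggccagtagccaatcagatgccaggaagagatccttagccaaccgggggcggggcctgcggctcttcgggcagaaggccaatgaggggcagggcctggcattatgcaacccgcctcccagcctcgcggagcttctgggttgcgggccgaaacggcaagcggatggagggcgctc
Per3, chr4:151044616-151044915, minus strand: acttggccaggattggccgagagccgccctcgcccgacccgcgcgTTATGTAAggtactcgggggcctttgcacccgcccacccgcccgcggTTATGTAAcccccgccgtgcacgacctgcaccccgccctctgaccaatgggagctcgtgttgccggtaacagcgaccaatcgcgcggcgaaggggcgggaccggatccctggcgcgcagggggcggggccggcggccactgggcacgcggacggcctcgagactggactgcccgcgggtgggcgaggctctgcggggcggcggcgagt
The match starts at -166 in Per1 and the first of 2 matches at -205 in Per3, with the gene start as 0. Of 11 Dbp-phase genes with a promoter in the table, 4 (36.4%) hold CACGTG and 1 (9.09%) holds TTATGTAA, counting both strands, beside 8.09% and 1.11% of 27025 genes. Among the 11319 of these that were tested, the shares were 11.3% and 0.707%. Of the 5 called Dbp-phase genes with a promoter, 2 hold CACGTG and 1 holds TTATGTAA. The matches describe letters and not binding.

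Per2, a repressor of the clock, was at 23.95, 67.2, 40.7 and 46.8 CPM at 4 weeks and at 12.1, 11.2, 15.97 and 11.9 CPM at 15 weeks, without overlap (log2 fold change -1.80 ± 0.29, edgeR adjusted p = 0.027). Per3, whose promoter holds the D-box letters, was at 33.5, 62.3, 60.9 and 59.9 CPM and at 20.9, 13.2, 19.8 and 22.1 CPM (log2 fold change -1.51 ± 0.24). For both, mouse 10 was the lowest young heart and still above the adult ones. Per1 changed by -1.03 ± 0.28 on the log2 scale. Its highest young heart, mouse 11, had 152 CPM against 70.3 to 78.0 CPM in the other young hearts and 36.3 to 61.2 CPM in the adult hearts. The bZIP factors Tef and Hlf, the latter picked after its values were seen, had log2 fold changes of -1.20 ± 0.21 and -0.92 ± 0.18, and the nuclear receptor gene Nr1d2 was at -0.77. Arntl was at 4.49, 5.94, 4.00 and 2.39 CPM at 4 weeks and at 20.98, 23.2, 21.7 and 13.4 CPM at 15 weeks, a 4.71-fold rise of the mean with no overlap (log2 fold change 2.24 ± 0.29, edgeR adjusted p = 0.0184). Dbp itself did not pass the test (log2 fold change -0.75), with 28.5 to 120 CPM in young and 23.99 to 67.1 CPM in adult hearts, and Nr1d1, which represses Arntl, had a log2 fold change of 0.69 and did not pass either. Per1 belongs to both the clock and the glucocorticoid list. The hour of dissection is not given in the sources used here. In R6/2 hearts 2 of the 12 Dbp-phase genes were called higher at 15 weeks (12.1% of all genes were) and 0 lower, with a median of 0.09. The WT median without mice 1 and 2 was -0.69 and edgeR called 0 of 12 (5 lower at an unadjusted p under 0.05).

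The list with the most called members was that of genes induced by interferon. Of 31 such genes tested, 11 were called lower at 15 weeks (4.71% of all genes were) and 0 higher. All 31 had a log2 fold change below 0, and the median was -1.13. Their summed level was 1150, 2480, 1770 and 674 CPM in mice 10 to 13 and 487, 611, 472 and 1050 CPM in mice 1 to 4, so that over the whole list mouse 4 exceeded mouse 13. Interferon acts on such genes through a response element, searched here as GAAA, any 2 bases and GAAA, which was added to the motifs after the calls were seen. The promoters of 3 called genes that hold it are given from RefSeq on GRCm38.p6, with the same limits and direction as for Per1. The capitals mark the element, which reads TTTC, 2 bases and TTTC on the printed strand.
Ifit1, chr19:34640639-34640938, plus strand: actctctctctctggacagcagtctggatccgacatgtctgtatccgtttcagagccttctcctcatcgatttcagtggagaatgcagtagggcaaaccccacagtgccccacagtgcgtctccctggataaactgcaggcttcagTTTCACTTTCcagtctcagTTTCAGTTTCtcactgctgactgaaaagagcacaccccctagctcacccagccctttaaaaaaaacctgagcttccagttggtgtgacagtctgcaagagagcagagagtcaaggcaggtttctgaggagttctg
Ifit3, chr19:34583279-34583578, plus strand: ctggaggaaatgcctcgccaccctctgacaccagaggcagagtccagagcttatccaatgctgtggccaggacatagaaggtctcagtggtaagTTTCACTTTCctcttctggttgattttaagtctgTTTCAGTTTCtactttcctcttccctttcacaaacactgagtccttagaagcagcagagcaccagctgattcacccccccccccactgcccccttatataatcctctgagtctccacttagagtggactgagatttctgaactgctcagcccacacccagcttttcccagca
Ddx58, chr4:40239776-40240075, minus strand: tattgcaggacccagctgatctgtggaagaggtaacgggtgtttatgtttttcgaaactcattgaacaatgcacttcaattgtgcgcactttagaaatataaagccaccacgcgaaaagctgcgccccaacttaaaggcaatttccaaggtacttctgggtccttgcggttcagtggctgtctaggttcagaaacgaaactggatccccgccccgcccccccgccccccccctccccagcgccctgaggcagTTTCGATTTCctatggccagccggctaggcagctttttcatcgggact
The first match starts at -104 in Ifit1, at -156 in Ifit3 and at 2 in Ddx58, with the gene start as 0. On either strand the element was held by 14 of 23 interferon genes with a promoter in the table (60.9%), by 4 of the 8 called genes among them (50%) and by 3.99% of 27025 genes.

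Ifit1, which binds foreign RNA, was at 27.9, 174, 37.9 and 10.9 CPM at 4 weeks and at 6.04, 9.63, 6.39 and 10.03 CPM at 15 weeks. The ages did not overlap, but mouse 13 was close to mice 2 and 4, and the log2 fold change was -2.96 ± 0.79 (edgeR adjusted p = 0.0844). Irf7, the transcription factor that amplifies the interferon response, was at 55.7, 108, 82.5 and 20.3 CPM and at 9.96, 15.0, 9.49 and 17.4 CPM (log2 fold change -2.36 ± 0.47, edgeR adjusted p = 0.04). Ddx58, which encodes the viral RNA sensor RIG-I, fell from 32.1 ± 8.91 to 17.5 ± 1.17 CPM (SD, n = 4 each), and Ifit3 and Xaf1 had log2 fold changes of -2.01 ± 0.57 and -1.64 ± 0.39. Among the other calls, Usp18, a protease that removes ISG15 from proteins, was at -2.48 and Mx2, an antiviral GTPase, at -1.76, while Ifit2, Ifi44, Parp14 and Bst2 lay between -1.25 and -0.97. Isg15 itself had a log2 fold change of -1.26 and did not pass the test. Mouse 11 was the highest heart for 10 of the 11 called genes. Without mouse 11, 7 of 31 were called and the median was -0.85. Leaving out mice 1 and 2, edgeR called 0 of 31 (18 lower at an unadjusted p under 0.05) and the median was -0.95, and leaving out either of these mice alone also left 0 calls. In R6/2 hearts 20 of 31 were called lower at 15 weeks (13.2% of all genes were) and 0 higher, with a median of -0.86.

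**Figure D3:**
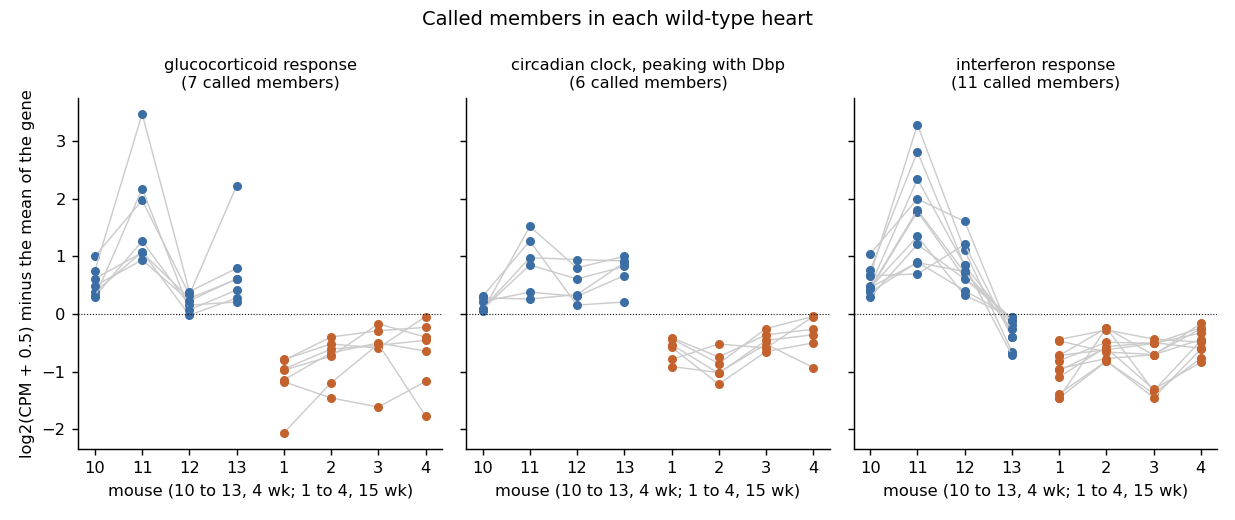
Called members of the glucocorticoid, Dbp-phase clock and interferon lists in each WT heart (mice 10 to 13, 4 weeks, blue; mice 1 to 4, 15 weeks, orange), as log2(CPM + 0.5) minus the mean of the gene over the 8 hearts, with a grey line joining the values of 1 gene within an age. Mouse 11 is the highest heart for 6 of 7, 4 of 6 and 10 of 11 of these genes, and in mouse 13 the interferon genes lie below 0.

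Called matrix genes went both ways, and called valve markers rose. Of 60 genes for fibrillar collagens and matrix assembly, 3 were called lower and 2 higher, beside 4.71% and 2.3% of all genes. The median log2 fold change was -0.39. Fbn2, a fibrillin of developing tissue, was at 7.87, 2.82, 3.55 and 4.44 CPM at 4 weeks and at 1.13, 1.17, 1.42 and 0.929 CPM at 15 weeks, without overlap (log2 fold change -2.01 ± 0.34, edgeR adjusted p = 0.0279). Lox, which crosslinks collagen, and Ccn2, a matricellular growth factor, had log2 fold changes of -1.70 ± 0.38 and -1.01 ± 0.29. Prelp and Fmod, leucine-rich proteoglycans of the matrix, were the 2 that rose, by 0.70 ± 0.16 and 0.93 ± 0.23 on the log2 scale, and for Fmod mouse 3, at 11.3 CPM, lay just under mouse 13, at 11.6 CPM. The collagen genes Col1a1 and Col3a1 had log2 fold changes of -0.42 and -0.91 and did not pass the test, and for Col3a1 the young hearts ran from 105 CPM in mouse 11 to 1142 CPM in mouse 10. Of 16 valve and epicardial markers 3 were called higher (2.3% of all genes were) and 0 lower. These were Fmod, Prg4, the lubricin of gliding surfaces (1.59 ± 0.29), and Sost, a secreted inhibitor of Wnt signalling (1.003 ± 0.25). The summed level of the valve and epicardial markers ran from 120 to 178 CPM at 4 weeks and from 133 to 252 CPM at 15 weeks. Of 14 fibroblast markers, the growth factor receptor gene Pdgfra was the 1 called, lower by 0.73 on the log2 scale. With mice 1 and 2 left out, edgeR called 0 matrix genes (6 higher and 4 lower at an unadjusted p under 0.05), and Prg4 kept its call.

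In the sarcomere, 0 of 32 genes of adult cardiac forms were called by edgeR (1 higher and 1 lower at an unadjusted p under 0.05, and 1 of each called by DESeq2), and the median log2 fold change was -0.04. With mice 1 and 2 left out the median was 0.26, and edgeR called 0 (11 higher and 0 lower at an unadjusted p under 0.05). Of 22 genes of fetal or skeletal forms, Tpm2, a tropomyosin, rose by 0.66 ± 0.16 on the log2 scale and Tnni2, the troponin I of fast skeletal muscle, fell by 1.34 ± 0.35. Levels of paired isoforms were compared per length, from FPKM. Myh7, the slow and fetal myosin heavy chain, made up 3.27%, 60.6%, 9.99% and 3.46% of the Myh7 and Myh6 FPKM in mice 10 to 13 and 4.09%, 3.51%, 5.51% and 3.65% in mice 1 to 4. Mouse 11 stood far apart from all other hearts while mice 10 and 13 lay below every adult one, and the difference did not pass an exact two-sided permutation test (p = 0.429, adjusted over 4 shares 0.571). Tnni1, the slow skeletal and fetal troponin I, was a very small share of the Tnni1 and Tnni3 FPKM, at 0.0452%, 0.338%, 0.112% and 0.0486% at 4 weeks and 0.0364%, 0.0312%, 0.0158% and 0.0279% at 15 weeks. The ages did not overlap, and the exact permutation p was 0.0286, the smallest that 4 against 4 hearts allow, with an adjusted p of 0.114. The share of Acta1, skeletal actin, of the Acta1 and Actc1 FPKM was 0.973% ± 0.447 at 4 weeks and 1.88% ± 0.597 at 15 weeks (SD, n = 4 each, exact permutation p = 0.0857). That of Myl4, the atrial light chain, of the Myl4 and Myl3 FPKM was 12.9% ± 2.47 and 13.3% ± 2.53 (SD, n = 4 each, exact permutation p = 0.8). Of 32 calcium handling genes 1 was called (7.01% of all genes were). This was Itpr1, a calcium release channel, which fell by 0.66 on the log2 scale, and the calcium pump gene Atp2a2 was at -0.09.

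Coactivators of fatty acid use fell, and most of the enzymes did not pass the test. Of 40 genes of fatty acid oxidation, 4 were called lower and 1 higher, beside 4.71% and 2.3% of all genes. The median log2 fold change was 0.14. The median without mice 1 and 2 was 0.42, with Hadha the 1 gene called higher and 0 lower by edgeR (18 higher and 5 lower at an unadjusted p under 0.05), and the 5 calls made with all hearts were lost. Ppargc1a, the coactivator that drives mitochondrial genes, was at 195, 389, 176 and 206 CPM at 4 weeks and at 44.3, 41.4, 101 and 68.8 CPM at 15 weeks, without overlap (log2 fold change -1.92 ± 0.36, edgeR adjusted p = 0.0347). Its relative Ppargc1b fell by 1.38 ± 0.23 on the log2 scale. Ppara, the fatty acid receptor, was picked after its values were seen, and was at 39.5 to 67.2 CPM in young hearts and at 5.77, 4.79, 22.0 and 5.26 CPM in adult hearts, with mouse 3 the highest adult heart (log2 fold change -2.33 ± 0.53). Cpt1a, the liver form of carnitine palmitoyltransferase, fell by 0.78 ± 0.15, and Acot2, a mitochondrial acyl-CoA thioesterase, rose by 1.06 ± 0.25. The muscle form Cpt1b was at 0.37 and Hadha, a subunit of the trifunctional protein of beta-oxidation, at 0.52. Neither passed the test with all hearts, whereas Hadha was called without mice 1 and 2, at 0.81. In glycolysis, Pgam1 rose by 0.40 and Pfkp fell by 0.44 on the log2 scale, as 2 calls of 26 genes. Of 76 nuclear genes of oxidative phosphorylation edgeR called 0 (1 higher at an unadjusted p under 0.05, and 1 by DESeq2), with a median of 0.00, and without mice 1 and 2 the median was 0.24 with 0 called (18 higher and 0 lower at an unadjusted p under 0.05). The libraries of mice 1 and 2 held 29800 and 32200 CPM of these genes, less than the other 6 hearts, at 33300 to 46600 CPM.

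The direction of the cell division genes depended on the libraries of mice 1 and 2. Of 50 such genes edgeR called 0 (1 at an unadjusted p under 0.05, and 0 by DESeq2), although all 50 had a log2 fold change above 0 with a median of 1.53. Their summed level was 1210 CPM in mouse 1 and 1150 CPM in mouse 2, and 118 and 113 CPM in mice 3 and 4, against 271, 77.6, 315 and 347 CPM in mice 10 to 13. The 21 thymocyte markers were at 2910, 2380, 99.8 and 69.5 CPM in mice 1 to 4 and at 83.3, 131, 518 and 365 CPM in mice 10 to 13. Without mice 1 and 2 the median log2 fold change was -1.63, and with the thymocyte level as a covariate it was -0.31. Mki67, the marker of cycling cells, was at 27.2, 1.26, 31.5 and 39.2 CPM at 4 weeks and at 118, 114, 7.08 and 3.98 CPM at 15 weeks. Its log2 fold change was 1.29 ± 1.19 with all hearts and -2.16 without mice 1 and 2, and neither passed the test. Of 42 of these genes with a promoter in the RefSeq table, 31 (73.8%) hold the cell cycle homology letters TTTGAA and 31 (73.8%) the NF-Y box CCAAT on either strand, beside 20.2% and 41.1% of 27025 genes. Actb, cytoplasmic actin, was called higher (1.19 ± 0.32), at 663 and 660 CPM in mice 1 and 2, 376 and 390 CPM in mice 3 and 4 and 126 to 308 CPM in the young hearts, and it lost its call without mice 1 and 2, at 0.75.

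**Figure D4:**
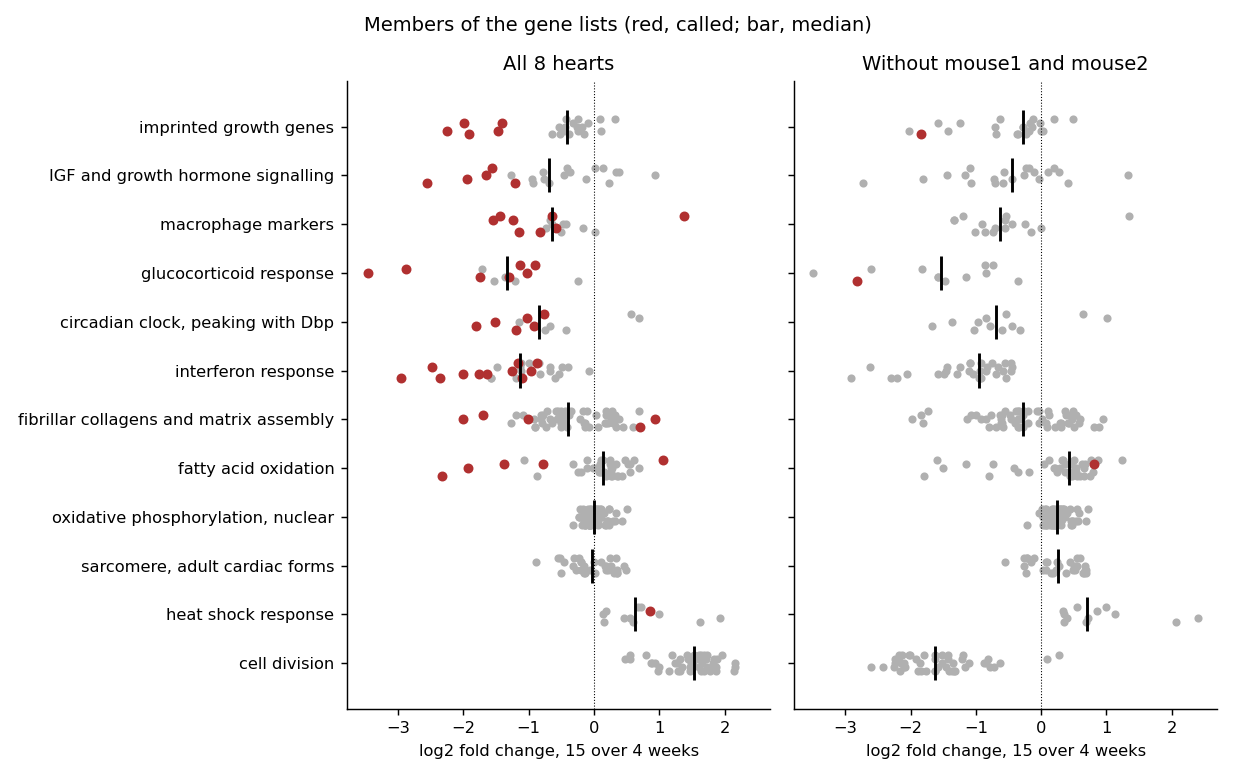
Log2 fold changes, 15 over 4 weeks, of the members of 12 gene lists with all 8 hearts (left) and without mice 1 and 2 (right); each point is a gene, red where called, and the bar is the median of the list. The cell division genes lie above 0 with a median of 1.53 on the left and mostly below 0 with a median of -1.63 on the right, whereas the interferon and glucocorticoid genes lie below 0 in both panels.

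Many of the WT calls were also made in R6/2 hearts, which share no library with them but the same imbalance of sex. All 4 R6/2 hearts at 15 weeks carried Y-linked transcripts, including mice 5 and 6, which are headed as female, whereas at 4 weeks mice 15 and 16 did not. Sex was thus unbalanced between the ages in both genotypes. Between 4 and 15 weeks, 3958 of 15675 genes were called in R6/2 hearts, 1890 higher (12.1%) and 2068 lower (13.2%). Of the 357 genes that rose in WT hearts, 193 also rose in R6/2 hearts, which is 54.1% of the WT list and 10.2% of the R6/2 list, and 1 fell. Of the 731 that fell, 492 also fell there, 67.3% and 23.8% of the lists, and 5 rose. The trend with exon length was present in both genotypes. In the bin with the longest exons the median log2 fold change was -0.23 in WT and -0.29 in R6/2 hearts. Its part in the shared calls was not tested. Whether the age change of a gene differed between genotypes was tested as an interaction over 16 hearts, WT change minus R6/2 change, which edgeR called for 86 of 16339 genes (0.526%). Igf2 fell by 1.91 in WT and by 0.73 in R6/2 hearts, an interaction of -1.15 ± 0.22 on the log2 scale (edgeR adjusted p = 0.0593). Tmem164 had log2 fold changes of -1.09 in WT and 0.16 in R6/2 hearts (interaction -1.23 ± 0.17). Bmp10, an atrial growth factor gene, fell by 0.94 in WT hearts, from 53.2 ± 6.64 to 27.8 ± 2.13 CPM (SD, n = 4 each), and by 2.56 in R6/2 hearts (interaction 1.64 ± 0.23). Htt, the mouse huntingtin gene, fell from 36.7 ± 4.66 to 26.3 ± 2.92 CPM in WT hearts (SD, n = 4 each), at a log2 fold change of -0.48 ± 0.13, and was at -0.71 in R6/2 hearts. Htt belongs to the bin with the longest exons.

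Heat shock genes encode chaperones of misfolded proteins. Their age change differed between the genotypes for 4 of 12 by the interaction test, which called 0.526% of all genes. In WT hearts all 12 had a log2 fold change above 0, with 1 called higher (2.3% of all genes were) and a median of 0.63. In R6/2 hearts 9 of 12 were called lower (13.2% of all genes were) and 1 higher (12.1%). Dnajb1, a co-chaperone of Hsp70, was at 15.8, 15.9, 23.5 and 22.7 CPM in WT hearts at 4 weeks and at 32.8, 37.98, 40.8 and 29.5 CPM at 15 weeks, without overlap (log2 fold change 0.86 ± 0.18, edgeR adjusted p = 0.0415). In R6/2 hearts it was at -0.61, and the interaction was 1.49 ± 0.24 (edgeR adjusted p = 0.031). Hspa1a, an inducible Hsp70, was at 6.68, 5.30, 9.32 and 9.60 CPM and at 13.4, 17.4, 53.2 and 11.3 CPM in WT hearts, with mouse 3 far above the other adult hearts. It did not pass the test in WT hearts (log2 fold change 1.62 ± 0.50, edgeR adjusted p = 0.12) and was at -1.79 in R6/2 hearts, with an interaction of 3.43 ± 0.57 (edgeR adjusted p = 0.0346). Its near-identical neighbour Hspa1b may share its reads. The WT median without mice 1 and 2 was 0.70 and edgeR called 0 of 12 (7 higher at an unadjusted p under 0.05).

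Older WT hearts showed which of these levels were shared by later ages. Over all WT libraries scaled together, Igf2 was at 83.3 ± 10.6 CPM at 4 weeks, 22.6 ± 2.04 CPM at 15 weeks, 21.8 ± 3.38 CPM at 8 months and 21.1 ± 7.08 CPM at 22 months (SD, n = 4, 4, 4 and 3). Tsc22d3 and Ms4a6d likewise had levels at 8 months, 67.1 and 1.77 CPM, nearer to those at 15 weeks than at 4 weeks. Bdh1 was higher still in the older hearts, at 209 ± 38.4 and 204 ± 15.1 CPM beside 97.0 ± 36.4 CPM at 15 weeks. Hipk2 differed from these, at 43 ± 4.53 CPM at 8 months, close to the 43.3 ± 14.4 CPM of the young hearts, and at 6.34 ± 1.24 CPM at 22 months. Srcap, Btbd7, Airn, Zim1 and Lrp6 also had 8-month levels nearer to 4 weeks and 22-month levels nearer to 15 weeks. The same held for the rising genes Gm13610 and Gm13601. They were at 4.84 and 0.854 CPM at 15 weeks, 0.0356 and 0.0305 CPM at 8 months and 3.9 and 0.861 CPM at 22 months. Of the 731 genes called lower at 15 weeks, 302 (41.3%) were nearer to 15 weeks at both older ages and 392 (53.6%) at 22 months only. The median exon length was 6209 bases for the former and 9486 bases for the latter. Between 8 and 22 months, 353 of the 392 were called lower at 22 months (14.8% of 15223 genes were called lower and 8.6% higher), a direction that follows from how the 392 were chosen. Of the 357 genes called higher at 15 weeks, 201 (56.3%) were nearer to 15 weeks at both older ages, 86 (24.1%) at 22 months only and 61 (17.1%) at neither. All called members of the interferon list (11), the macrophage list (8) and the glucocorticoid list (7) were nearer to 15 weeks at 8 months, as were 5 of 6 Dbp-phase clock genes, 3 of 5 imprinted genes and 2 of 5 growth factor signalling genes. The older hearts come from another colony, so age and colony cannot be told apart.

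**Figure D5:**
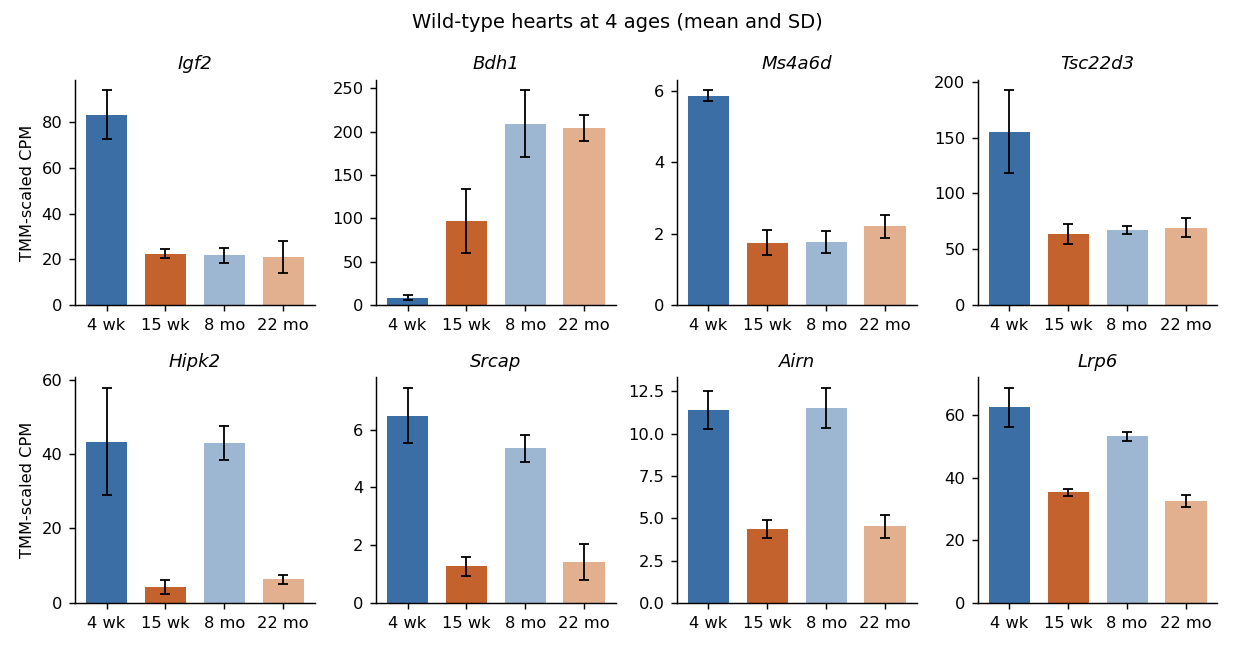
Mean TMM-scaled CPM (bars) with SD of 8 genes in WT hearts at 4 and 15 weeks (n = 4 each, R6/2 colony) and at 8 and 22 months (n = 4 and 3, HdhQ150 colony). In the upper row the 8-month level is near or beyond that at 15 weeks, as for Igf2 at 22.6 and 21.8 CPM, and in the lower row it is nearer that at 4 weeks, as for Hipk2 at 43.3 and 43 CPM.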

How the data were processed

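Whole hearts were sequenced on an Illumina HiSeq. The authors aligned reads to mouse genome B37 with the OSA aligner of Omicsoft and deposited 2 tables of 37620 Ensembl genes over 30 hearts. One holds expected counts (70.9% of nonzero values were whole within 1e-09), and in the other the authors deposited FPKM. The table of sample descriptions that came with them was left aside. No column of sample values was left unused (0). Genes without a symbol, 4723 of the 37620, held 0.759% of counts.

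Samples were grouped by the age and genotype of their labels. The authors tested with DESeq at 10% FDR and a 30% fold change, and edgeR 4.0.16 took its place here. Expected counts were rounded, filtered with filterByExpr, scaled by TMM and tested by the quasi-likelihood method, 2 groups at a time and, for age by genotype, over 16 libraries. The plan had foreseen raw counts. Adjusted p-values in the text are Benjamini-Hochberg values of this test over all genes tested. Isoform shares came from FPKM and were tested by exact permutation.

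Members, lists and named genes were chosen with earlier results of these data known. Of 1015 list entries in 42 lists, 1001 matched a symbol. Lists were described by counts and medians, with no test of the list. Named genes were the 12 leading genes in each direction, the first 4 members and up to 3 called members per direction of each list, and genes the study measured in heart. Other genes are said to be picked after their values were seen, and a few genes that the rule names are not reported here.

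On simulated counts for this comparison, with 15350 genes tested, the test recovered 47 of 107 genes changed 2-fold and 82 of 93 changed 4-fold, with 11 false calls, and it called 0 of 15374 genes where none was changed. Each simulated gene was drawn independently. Shifts of many genes in a library, such as thymocyte transcripts or the exon length trend, were left out. The false calls therefore do not measure the effect of such shifts. Alternatives covered libraries, scaling, filters, thresholds, covariates, DESeq2 1.42.0, and limma 3.58.1 on log2(FPKM + 1) or log2(FPKM + 0.1) of genes filtered at 0.5 FPKM. The lane block, the fit without mice 1, 2 and 12, the exon length adjustment, the comparison of 22 with 8 months and the interferon motif were chosen after seeing the data. Promoters came from RefSeq on GRCm38.p6 and were matched by symbol, since the files use another build. R 4.3.3 and Python 3.11.15 with numpy 2.4.6, scipy 1.17.1, pandas 2.3.3 and matplotlib 3.10.9 were used.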

Additional observations from a re-analysis of the deposited data

Results flagged for a closer look

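In 148 groups of 4 hearts examined, 20 held a heart that stood apart from the other 3 by Dixon's criterion, 10 of them mouse 11 and 3 mouse 3. Chance alone gives about 1 such group in 20. For mouse 11 these were the high levels of Peg3 (100 CPM), Per1 (152 CPM), Ifit1 (174 CPM), Ppargc1a (389 CPM), Ppara (67.2 CPM), Tnni2 (4.52 CPM) and Myh7 (16500 CPM), the high Myh7 share (60.6% of the Myh7 and Myh6 FPKM) and the low levels of Srcap (5.49 CPM) and Htt (29.8 CPM). For mouse 3 they were the high levels of Bdh1 (164 CPM), Ppara (22.0 CPM) and Hspa1a (53.2 CPM). Among the other young hearts, mouse 10 was high for Cpxm2 (2.62 CPM) and low for Per3 (33.5 CPM), mouse 12 was low for Lyve1 (25.3 CPM), and mouse 13 was high for Hlf (45.4 CPM) and for Airn (14.1 CPM). Among the other adult hearts, mouse 2 was low for Igf1r (2.62 CPM) and mouse 4 high for Prelp (76.6 CPM).

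The age change differed between WT and R6/2 hearts by the edgeR interaction test for 5 of the genes named. The difference of log2 fold changes, WT minus R6/2, was -1.154 for Igf2, -1.227 for Tmem164, 1.643 for Bmp10, 1.491 for Dnajb1 and 3.433 for Hspa1a. Without mice 1 and 2, Tmem164, Bmp10 and Hspa1a kept their calls, and the edgeR adjusted p was 0.133 for Igf2 and 0.106 for Dnajb1.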

How the results depend on the processing

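The 1088 WT calls became 106 without mice 1 and 2, 14 without mice 1, 2 and 12, and 0 by edgeR without mice 1, 2, 12 and 13 (1805 genes at an unadjusted p under 0.05). Leaving out 1 library gave 295 to 1116 calls. Using the hearts with Y-linked transcripts alone gave 44, and a lane block over 3 shared lanes gave 1. Fitting all 30 libraries together gave 3060 calls (1531 higher and 1529 lower) and fitting the 16 of the R6/2 colony 2330. DESeq2 made 2004, no filter on low counts gave 719, an adjusted p under 0.05 gave 499 and limma on FPKM without a filter gave 569. A covariate for thymocyte markers gave 1811 calls, one for Y-linked transcripts 453 and one for the labelled sex 1920. The count stayed within 1.5 times with RLE size factors (1102), no limit on the fold (1149), robust dispersion (1090), filtered limma (830 and 856) and the exon length adjustment (836). In R6/2 hearts the count ran from 3197 to 4468 when 1 library was left out. The interaction calls became 785 with DESeq2, 82 of them shared with edgeR, and 17 without mice 1 and 2. The cause of these changes was not tested, beyond the smaller number of libraries where some were left out.

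The 67 called genes given with values by heart or standard errors kept their direction under the 28 alternatives, of which filtered limma on FPKM tested 61 of them. The alternatives that change only a threshold reuse the main fit, so they could not change a direction. Without mice 1 and 2, 22 leading genes kept their call, for which they were chosen, and 2 of the other 45 did. Of the 67 calls, 41 (without mouse 2) to 58 (without mouse 11) were kept when 1 library was left out. The hearts with Y-linked transcripts alone kept 16 of the 67, the lane block 0 and DESeq2 67. The Tnni1 share difference was -0.114 percentage points without mice 1 and 2 (exact permutation p = 0.133) and ran from -0.139 to -0.0409 when 1 library was left out, where 3 against 4 hearts allow no p under 0.0571 (exact permutation test). The Myl4 share difference reversed to -1.54 percentage points without mice 1 and 2, and ran from -0.691 to 1.45 when 1 library was left out, with -0.490 without mouse 2. Mki67 reversed to a log2 fold change of -2.16 without mice 1 and 2, -2.03 without mouse 12 too, -1.36 without mice 1, 2, 12 and 13 and -0.80 with the thymocyte covariate. The median of the cell division list went to -1.63, -1.52, -0.96 and -0.31 under the same 4 alternatives. With 4 hearts an age, the test recovers less than all 2-fold changes, so a missed call does not show that a gene is unchanged. No paired analysis was possible because the replicate numbers name libraries in order of accession and pair no animals, so that the lane was the 1 block that could be fitted, with the count given above.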
